A study of Rattus norvegicus with 18 samples.

Results

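The 137 gene IDs described here were higher in female than in male Dahl S rats on both diets in mesenteric resistance artery perivascular adipose tissue (MRPVAT). They were chosen by their measured values, from 32883 gene IDs (0.417%), with a rule on log2(FPKM + 0.5), where FPKM is a fragment count scaled by transcript length and by the reads that a library has in genes. The mean of the animals coded F had to lie at least 0.8 above the mean of the animals coded M on the high fat diet (HFD) and also on the control diet (CD), and the lowest of the 7 F-coded values had to lie above the highest of the 9 M-coded values. IDs under 0.1 FPKM in all 9 M-coded animals were left out, and 2 animals, G73FHF3 and G75FHF5, took no part in the choice. The difference between F and M is therefore a description of what was selected on, and no test of it is given.

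The deposited data hold bulk RNA sequencing of 18 Dahl S rats, an inbred salt-sensitive strain, after 24 weeks on a diet of normal salt content. The paper describes 5 rats per sex and diet, so the female CD and male HFD groups are smaller here than in the paper. The study started the diets at 3 weeks of age. The groups were 4 female CD, 5 female HFD, 5 male CD and 4 male HFD animals, and each library came from a separate rat, so that p-values measure the spread between animals. The labels state that HFD rats were hypertensive at this time and CD rats normotensive, so a difference between the diets cannot be told apart from a difference in blood pressure. The library labels call the cells adipocytes and stromal vascular cells. Female animals carry the code numbers 73 and 75 and male animals 74 and 76, so sex and code number cannot be told apart. The sex or treatment tag went against the title in 13 of the 18 animals. The titles, which match the animal codes in sex and diet, were used. For G73FHF3 the title gives number 75 and for G75FC5 it gives 73.

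MRPVAT is the fat around the small arteries of the gut wall's blood supply, vessels that set peripheral resistance. It is largely white-like fat and holds adipocytes, progenitors, endothelial cells, nerves and immune cells. Sex is known to shape fat depots through gonadal hormones and through genes on the sex chromosomes. In bulk tissue, fewer cells of a type and less RNA per cell cannot be told apart. The table names its genes by Ensembl rat ID alone, and 0 of these IDs matched the annotation table used here. The members therefore stand without symbols, roles, chromosomes or promoters, the tissue could not be checked against marker genes, and 4 IDs are printed as examples.

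Reads counted in genes ranged from 14547762 in G75FHF5 to 55148275 in G75FC4. The number of IDs at 0.5 FPKM or more ranged from 11865 in G75FC5 to 14733 in G75FHF5. G75FC5, G75FC4 with 12798 and G76MC3 with 13004 had the fewest, and the other 15 animals had 13242 or more. Of all IDs, 15128 reached 0.5 FPKM in at least 3 of the 16 animals used by the rule, and the 137 members were all among them. These 15128 serve as the background below.

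In F-coded animals the members were mostly well expressed, with moderate differences from M-coded animals. Their mean over the 7 F-coded animals ran from 0.893 to 5844 FPKM, with a median of 23.7 FPKM, where the median of the background was 8.02 FPKM. A mean of 100 FPKM or more was seen in 32 members (23.4%, against 6.46% of the background), a mean of 10 to under 100 FPKM in 64, and a mean of 1 to under 10 FPKM in 40. The remaining member lay under 1 FPKM. These are levels in the animals where the rule asked for high values. Over the 9 M-coded animals, the median was 9.99 FPKM for the members and 7.19 FPKM for the background. Fewer than 10 reads in some M-coded animal were found for 10 members, and 3 of these had an M-coded animal without a read.

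Between F and M the median difference of the members was 1.16 on HFD (range 0.81 to 5.21) and 1.02 on CD (range 0.80 to 3.71), on the log2(FPKM + 0.5) scale, where 1 is a doubling. The background itself lay 0.25 higher in F on HFD and 0.01 higher on CD. Relative to that shift, the members were 0.90 higher on HFD and 1.00 higher on CD. The HFD difference exceeded the CD difference in 85 of the 137 (62.0%), a smaller share than the 70.1% of the background. As a ratio of mean FPKM, F to M, the median member stood at 2.34 on HFD and 2.23 on CD, over the 136 members with a value above 0 in both M-coded groups. Both ratios reached 2 in 89 members.

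**Figure D1:**
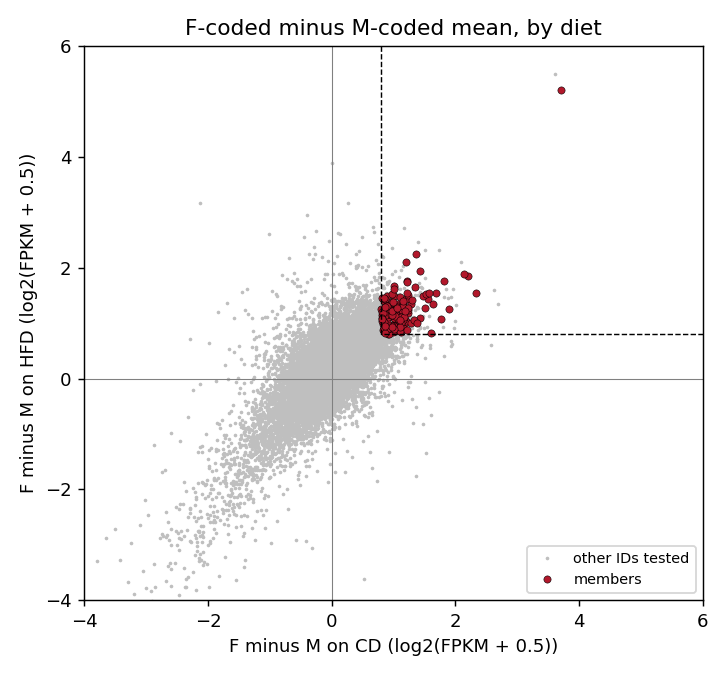
Each point is a gene ID, with the F-coded minus M-coded mean of log2(FPKM + 0.5) on CD across and on HFD upwards. The dashed lines stand at 0.8, the 137 members are red, grey points beyond both lines are IDs with overlapping animals or under the floor, and 30 background IDs lie outside the axes. Most members sit between 0.8 and 1.5 on both axes, and 1 stands far from the rest at 3.71 on CD and 5.21 on HFD.

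Many members lay close to the limits of the rule. The smaller of the 2 differences was under 1 in 74 members, from 1 to under 1.5 in 55 and 1.5 or more in 8. The 3 members just inside had a smaller difference of 0.803, 0.807 and 0.808, and the 3 IDs just outside had 0.795, 0.795 and 0.794. The gap between the lowest F-coded and the highest M-coded value had a median of 0.16 and a maximum of 0.71 (log2). By the gap, the 3 members just inside stood at 0.0008, 0.0037 and 0.0037 and the 3 IDs just outside at -0.00014, -0.0016 and -0.0024. Apart from the gap, 455 IDs passed the difference on both diets, and 287 passed the gap whatever their difference. The floor removed 2 further IDs, whose highest M-coded values were 0.0746 and 0.0665 FPKM and whose F-coded values reached 1.34 and 35.2 FPKM.

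The largest difference belonged to ENSRNOG00000037911. It stood at 17.7 FPKM in G73FC3, 40.0 in G73FC4, 2.34 in G75FC4 and 1.00 in G75FC5 among the F-coded CD animals, and at 22.8 in G73FHF1, 28.6 in G73FHF2 and 30.6 in G75FHF1 on HFD. In the M-coded CD animals it had 0.0437 (G74MC4), 0 (G74MC5), 0 (G76MC3), 0.188 (G76MC4) and 0.149 FPKM (G76MC5), and on HFD it had 0.490 (G74MHF2), 0.101 (G74MHF3), 0.430 (G76MHF1) and 0.0572 FPKM (G76MHF2). The M-coded values rest on 0 to 11 reads each, and the lowest F-coded value, in G75FC5, on 34 reads. This was a transcript near the limit of detection in M-coded rats, and among F-coded rats the CD animals of code number 75 were far below the rest, with an SD of 18.1 around a mean of 15.3 FPKM on CD (n = 4) and of 4.03 around 27.3 FPKM on HFD (n = 3).

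ENSRNOG00000018454 had the highest level of all members. Its F-coded values were 4091 (G73FC3), 5151 (G73FC4), 9345 (G75FC4) and 8773 FPKM (G75FC5) on CD and 5196 (G73FHF1), 3619 (G73FHF2) and 4732 FPKM (G75FHF1) on HFD. On CD the M-coded values were 2553 (G74MC4), 2049 (G74MC5), 3056 (G76MC3), 2209 (G76MC4) and 1874 FPKM (G76MC5), and on HFD 2472 (G74MHF2), 1279 (G74MHF3), 1328 (G76MHF1) and 1527 FPKM (G76MHF2). Here the CD animals of code number 75 were the highest of all, the reverse of their place for ENSRNOG00000037911.

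ENSRNOG00000011250 and ENSRNOG00000053494, the members furthest below the F-coded animals in G75FHF5, showed the same order of groups at a lower level. For ENSRNOG00000011250 the F-coded values were 582, 438, 881 and 901 FPKM on CD (G73FC3, G73FC4, G75FC4 and G75FC5) and 488, 697 and 418 FPKM on HFD (G73FHF1, G73FHF2 and G75FHF1), and the M-coded values ran from 181 to 292 FPKM on CD and from 125 to 290.1 FPKM on HFD. ENSRNOG00000053494 stood at 267, 349, 553 and 552 FPKM in the same F-coded CD animals and at 324, 259 and 344 FPKM in the HFD animals, against 156 to 205 FPKM in M-coded CD and 130.1 to 213 FPKM in M-coded HFD animals. In both, G75FC4 and G75FC5 were the highest animals, and M-coded animals on the 2 diets overlapped.

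**Figure D2:**
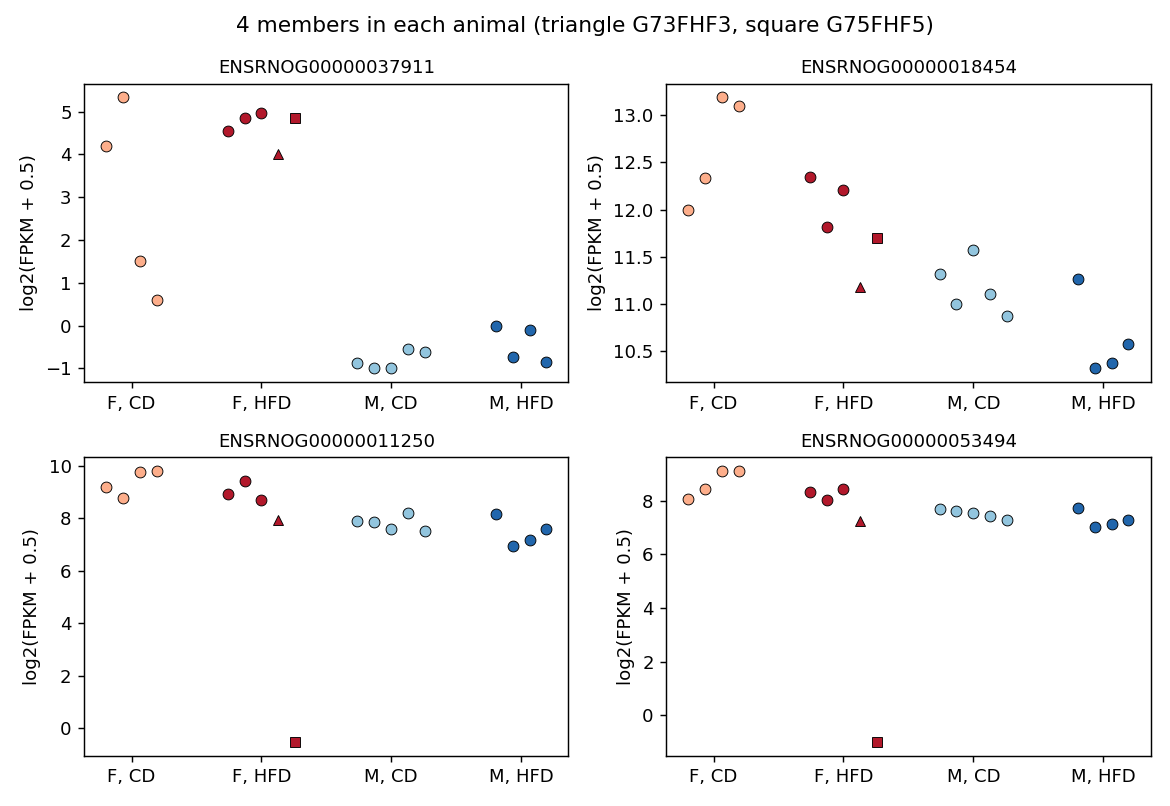
Each panel shows log2(FPKM + 0.5) of 1 member in every animal, by group, with circles for the 16 animals of the rule, a triangle for G73FHF3 and a square for G75FHF5. F-coded circles lie above M-coded circles in each panel, as the rule requires, and G75FHF5 falls to 0.186 FPKM for ENSRNOG00000011250 and to 0 for ENSRNOG00000053494 while it stays with the F-coded animals for ENSRNOG00000037911.

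How the members as a group stood in each animal was read as the median, over the 137, of the value minus the mean of the 9 M-coded animals. The F-coded HFD animals were close together, at 1.07 in G73FHF1, 1.06 in G73FHF2 and 0.88 in G75FHF1, and the F-coded CD animals were wider, at 1.06 in G73FC3, 0.85 in G73FC4, 1.21 in G75FC4 and 1.53 in G75FC5. M-coded CD animals ran from -0.03 (G74MC4) to 0.30 (G76MC3). M-coded HFD animals were the most scattered of the male groups, at 0.35 in G74MHF2, -0.05 in G76MHF2, -0.43 in G74MHF3 and -0.47 in G76MHF1. Of all reads, the members took 2.08% ± 0.135 (SD, n = 3) in F-coded HFD, 2.68% ± 0.726 (SD, n = 4) in F-coded CD, 0.866% ± 0.265 (SD, n = 4) in M-coded HFD and 1.12% ± 0.136 (SD, n = 5) in M-coded CD animals.

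**Figure D3:**
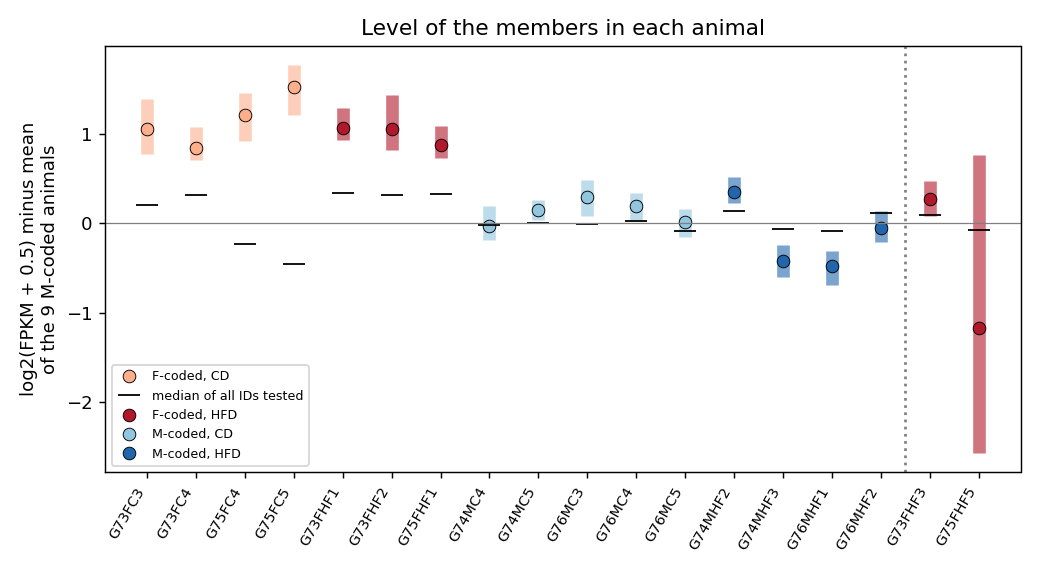
For each animal, the circle is the median and the bar the middle span (quartiles) of the 137 members, as log2(FPKM + 0.5) minus the mean of the 9 M-coded animals, and the short black line is the median of the 15128 background IDs. The F-coded animals of the rule stand between 0.85 and 1.53 and the M-coded between -0.47 and 0.35, G73FHF3 sits at 0.28 among the M-coded, and G75FHF5 spreads from -2.57 to 0.77.

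A few animals set the edges. The highest M-coded value was that of G74MHF2 in 59 members (43.1%, against 15.3% of the background) and of G76MC3 in 40 (29.2%, against 24.5%, a share near the background). The lowest was that of G76MHF1 in 63 (46.0%, against 20.4%) and of G74MHF3 in 45 (32.8%, against 13.9%). G74MHF2 was the highest of the 4 M-coded HFD animals in 115 members, and the same share over all IDs was not computed. Over all 137 members G74MHF2 lay a median of 0.67 above the mean of the other 3 (0.10 in the background). On the F side, G75FC5 was the highest in 69 members (50.4%, against 23.8%), and G75FHF1 and G73FC4 were the lowest in 35 each (25.5%, against 5.86% and 6.64%). The rule used the values of all these animals, so the shares describe the choice. Without G74MHF2 the rule gave 215 IDs and kept 136 of the 137, and without G76MC3 it gave 263 and likewise kept 136.

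Among the 4 F-coded CD animals, the 2 coded 75 differed from the 2 coded 73. G75FC5, which carries number 73 in its title, and G75FC4 were also the libraries with the fewest IDs at 0.5 FPKM (11865 and 12798), and the part of this in the difference was not tested. In the members, the mean of G75FC4 and G75FC5 lay a median of 0.36 above that of G73FC3 and G73FC4, while in the background it lay 0.46 below (log2). G75FC4 and G75FC5 were both above the other 2 in 66 members (48.2%, against 24.5% of the background) and below both in 9 (6.57%, against 48.4%). The rule used these animals, and an ID low in either of them fails the gap. G75FC5 was the lowest F-coded animal in 3.65% of the members and 45.2% of the background. The contrast with the background therefore depends in part on the choice of the members. By level, 60 of the 137 members were among the 3782 background IDs with a mean of 23.07 FPKM or more over the 16 animals. In these IDs the 75 minus 73 difference had a median of 0.25. From the next lower class of level down, its medians were -0.52, -1.07 and -0.55. The part of level in the contrast was not tested. The CD difference of the members rested in part on G75FC4 and G75FC5. Without G75FC4 and G75FC5, its median was 0.85 and 78 of the 137 still reached 0.8. The F-coded mean stayed higher on both diets in all 137, which the rule's gap fixes in advance whichever animals are left out. Leaving out G76MC3 as well, the rule gave 553 IDs, of which 92 were among the 137, and the median CD difference was 0.91. Within pairs of code numbers, the median difference of the members ranged on HFD from 0.91 (number 75 minus 74) to 1.34 (73 minus 76) and on CD from 0.83 (73 minus 76) to 1.31 (75 minus 74).

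Scaling of the libraries moved the count of IDs that passed the rule. With median-of-ratios scaling, under which the background differed by -0.0041 on HFD and -0.013 on CD between F and M, the rule gave 44 IDs, 39 of them among the 137. Of the 137 members, 53 still had every F-coded value above every M-coded value and 83 reached 0.8 on both diets, with medians of 0.89 on HFD and 1.02 on CD. With quantile normalization the rule gave 67 IDs, 51 of them among the 137, and the medians were 1.07 and 0.96. The F-coded mean was higher on both diets in 137 of the 137 under each of these scalings. The members were chosen for a difference of at least 0.8 on both diets, so this direction was largely set by the choice.

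Members were shorter than other IDs. Their median length, as recovered from the FPKM values, was 1456 bases against 1942 bases in the background. By length class, members made up 1.30% of the 3782 IDs of up to 1175 bases and 0.317% of the 3781 IDs of 3032 bases or more. Over the same 2 classes of the background, the F-coded CD animals of number 75 lay 0.24 and 0.97 below those of number 73 (median log2). The F minus M difference on HFD was 0.19 and 0.32 and on CD 0.00 and -0.02 in these classes. Any part of length in the choice of the members was not tested.

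G73FHF3, an F-coded HFD animal that the rule did not use, lay mostly within the M-coded range. The paper named G73FHF3 and G75FHF5 as statistical outliers and left both out of its further analyses. Its supplement calls G75FHF5 a clear outlier. For G73FHF3 the supplement gives another ground. With this animal included, the comparison of female HFD with female CD rats had no differentially expressed genes, and it was then removed. In 17 members (12.4%, against 0.205% of the background) G73FHF3 lay between the highest M-coded and the lowest F-coded value. In 114 (83.2%, against 63.8% of the background) it was above the M-coded mean. G73FHF3 lay above the highest of the 9 M-coded values in 35 of the 137 members (25.5%), where 8.10% of the background did so. The other 102 members (74.5%, against 89.6% of the background) were within the M-coded range, and in 0 members was G73FHF3 below the lowest M-coded value (2.31% of the background). It reached the lowest F-coded value in 18 members (13.1%, against 85.5% of the background) and exceeded the highest F-coded value in 0 (12.3% of the background). By the rule, the F-coded values of the members are all above the M-coded ones, so these 2 contrasts with the background are in part set by the choice. The rule also used the M-coded values and asked that each lie below the F-coded ones. The shares of G73FHF3 set against the M-coded values, here and below, therefore depend in part on the choice as well. Against the 4 M-coded HFD animals alone, it was above the highest in 49 members (19.7% of the background). On a scale from 0 at the mean of the M-coded HFD animals to 1 at that of the F-coded HFD animals, its median over the members was 0.36. For the 4 printed IDs it had 15.7 FPKM of ENSRNOG00000037911, close to the F-coded animals, but 2323 FPKM of ENSRNOG00000018454, 248 FPKM of ENSRNOG00000011250 and 152 FPKM of ENSRNOG00000053494, all inside the M-coded range. With G73FHF3 counted as an F-coded HFD animal, the rule gave 30 IDs, each of them among the 137, and 108 of the 137 kept a HFD difference of 0.8.

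G75FHF5, the other animal outside the rule, held most members far below the F-coded level. It was above the highest M-coded value in 40 members (29.2%), a share near the 30.2% of the background, and below the lowest M-coded value in 86 (62.8%), where 32.6% of the background was. The remaining 11 (8.03%, against 37.2% of the background) were within the M-coded range, so few members took an intermediate level in this animal. In 78 members (56.9%, against 11.1% of the background) it was at or under the F-coded mean divided by 4, on the log2(FPKM + 0.5) scale, and in 17 (12.4%, against 8.47%) it reached at least 4 times that mean. The rule asked for a high F-coded mean and for M-coded values below the F-coded ones. These shares and those set against the M-coded range therefore depend in part on the choice. The 17 had F-coded means of 1.57 to 26.6 FPKM, with a median of 2.76 FPKM, and stood at 17.5 to 471 FPKM in G75FHF5. The 78 had a median F-coded mean of 43.3 FPKM and stood at 0 to 80.9 FPKM in G75FHF5, with a median of 2.61 FPKM. ENSRNOG00000011250 had 3 reads (0.186 FPKM) and ENSRNOG00000053494 had 0 reads among the 14547762 counted in this animal, which allows up to 3 reads by counting error alone. By contrast, ENSRNOG00000037911 had 28.6 FPKM and ENSRNOG00000018454 had 3331 FPKM in it, both above every M-coded value.

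**Figure D4:**
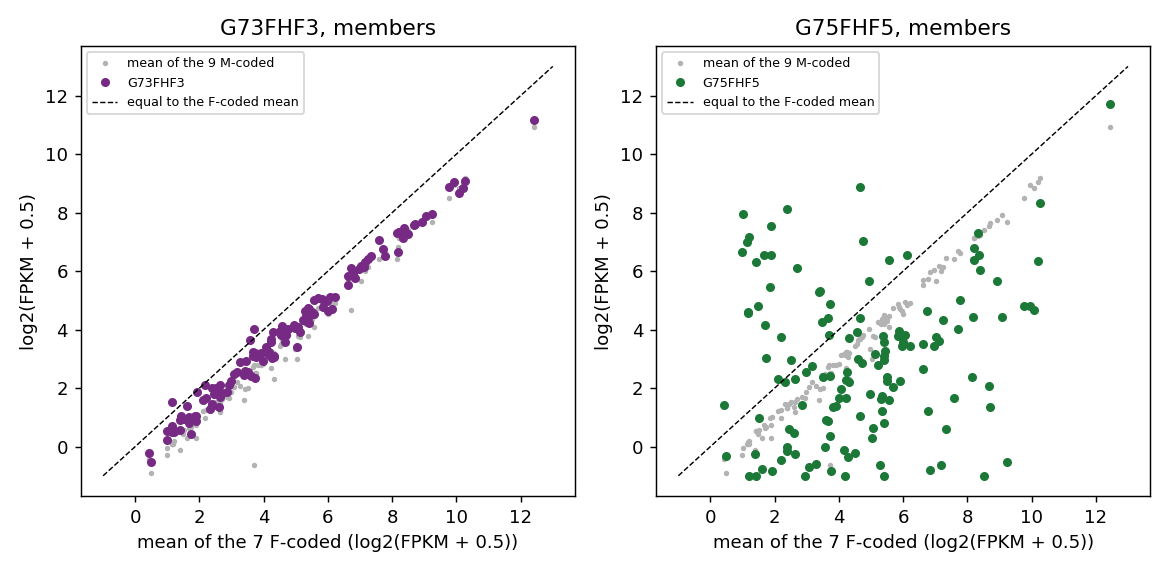
Each of the 137 members is placed by its mean over the 7 F-coded animals (across) and, upwards, by its value in G73FHF3 (left panel) or G75FHF5 (right panel), with the mean of the 9 M-coded animals in grey, all as log2(FPKM + 0.5). Points of G73FHF3 lie mostly on or just above the grey points, whereas those of G75FHF5 scatter widely on both sides, with 17 at least 2 above and 78 at least 2 below the F-coded mean.

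The diet was compared within each sex by limma on log2(FPKM + 0.5) with Benjamini-Hochberg adjustment over all IDs tested and a call at adjusted p under 0.05 with a change of more than 2-fold. The rule did not use this contrast, but it used the same animals' values, and asking for a difference on both diets and for no overlap across them limits how far a member can change with diet. The members' shares are therefore set beside those of all IDs as a description. In M-coded rats 134 of the 137 members could be tested and 0 were called, where 893 of 14265 IDs (6.26%) were. Without regard to fold, 3 members (2.24%, against 21.5% of all IDs tested) had an adjusted p under 0.05 by limma. All 3 were lower on HFD, by 0.49 to 0.75 on the log2 scale, with adjusted p from 0.020 to 0.036. At an unadjusted p under 0.05, 17 members were lower on HFD (12.7%, against 14.6% of all IDs) and 1 was higher (0.746%, against 24.9%). HFD minus CD in M-coded rats had a median of -0.29 over the members (range -0.90 to 0.34) and of 0.01 over all IDs tested. It was negative in 119 of the 134 members (88.8%), where 49.0% of all IDs were negative. In the background this difference varied with level. Its median was -0.20 in the 3782 IDs with a mean of 23.07 FPKM or more over the 16 animals, which included 60 of the 137 members. From the next lower class of level down, the medians were 0.0021, 0.19 and 0.12. Any part of level in the members' difference was not tested.

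Single animals moved these male counts. Without G74MHF2, the M-coded HFD animal in which the members were highest, 2 members were called, both lower on HFD, the median was -0.43, and 39 members had an adjusted p under 0.05. In that setting 1.52% of the members and 8.01% of all IDs were called, and 29.5% and 26.5% had an adjusted p under 0.05. The count at an adjusted p under 0.05 by limma, 3 with every animal, was 5 without G74MC4 (3.76%, against 26.8% of all IDs). It was 2 without G76MC3 (1.49%, against 20.8%) and 1 without G76MC4 (0.752%, against 5.37%). Without G74MHF3, G76MC5, G76MHF1 or G76MHF2 it was 0. In these settings few or no IDs of any kind passed, at 0.0212%, 3.36%, 0% and 0% of all IDs in the same order. Members lower at the unadjusted p numbered 70 without G74MHF2 (53.0%, against 19.7% of all IDs). They numbered 5 without G74MHF3 (3.73%, against 10.4%), 5 without G76MHF1 (3.73%, against 9.68%) and 6 without G76MC3 (4.48%, against 13%). Without G76MC4 there were 7 (5.26%, against 10.7%) and without G74MC5 11 (8.27%, against 14.6%). The median stayed below 0, at -0.19 without G76MHF1 as the value nearest to 0. With median-of-ratios scaling 13 members (9.85%, against 22.5% of all IDs) had an adjusted p under 0.05 and 47 (35.6%, against 20.9%) were lower at the unadjusted p. With quantile normalization these were 13 (9.77%, against 22.2%) and 44 (33.1%, against 22.5%). Under both scalings, without G74MHF2 and in the fit of all 4 groups (9.49%, against 6.39%), the share of members lower at the unadjusted p was thus above that of all IDs, where in the 2-group fit of the deposited values with every animal it was below. When all 4 groups were fitted together, limma gave 0 of 15128 IDs an adjusted p under 0.05 in M-coded rats, while limma-voom on recovered reads called 0 members and 1166 IDs.

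In F-coded rats, all 137 members were tested and 0 were called, as were 0 of the 14186 IDs (0%) tested. By limma, 0 members were lower on HFD at an unadjusted p under 0.05 (1.27% of all IDs) and 0 were higher (2.38%). The test on recovered reads with limma-voom called 0 members, and by it 2 members were lower at that p (1.46%, against 1% of all IDs). Members lower at that p numbered 8 with median-of-ratios scaling (5.84%, against 2.48% of all IDs), 7 with quantile normalization (5.11%, against 2.68%) and 7 with all 4 groups in the fit (5.11%, against 5.27%). They numbered 9 with G73FHF3 added (6.57%, against 1.22%), 5 without G73FC4 (3.65%, against 2.82%) and 2 without G75FC5 (1.46%, against 0.796%). Without G75FC4 and G75FC5 there were 3 (2.21%, against 1.26%) and without G73FC3 1 (0.73%, against 4.17%). The median of HFD minus CD was -0.16 over the members and 0.32 over all IDs tested, and it was negative in 100 of 137 members, where 32.4% of all IDs were negative. Without G75FC4 and G75FC5 these medians were -0.0046 and 0.04, and with median-of-ratios scaling -0.50 and 0.02. ENSRNOG00000037911 was the sole member to differ by more than 2-fold between the diets, at 1.88 higher on HFD with an SE of 1.07 and an adjusted p of 0.48 by limma, and on CD its values in G75FC4 and G75FC5 lay far below the other 2. ENSRNOG00000018454 was 0.53 lower on HFD in F-coded (SE 0.42, adjusted p = 0.49 by limma) and 0.54 lower in M-coded rats (SE 0.21, adjusted p = 0.091). Of the members tested in both sexes, 91 of 134 were lower on HFD in both and 7 were higher in both. The same shares over all IDs were not computed.

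**Figure D5:**
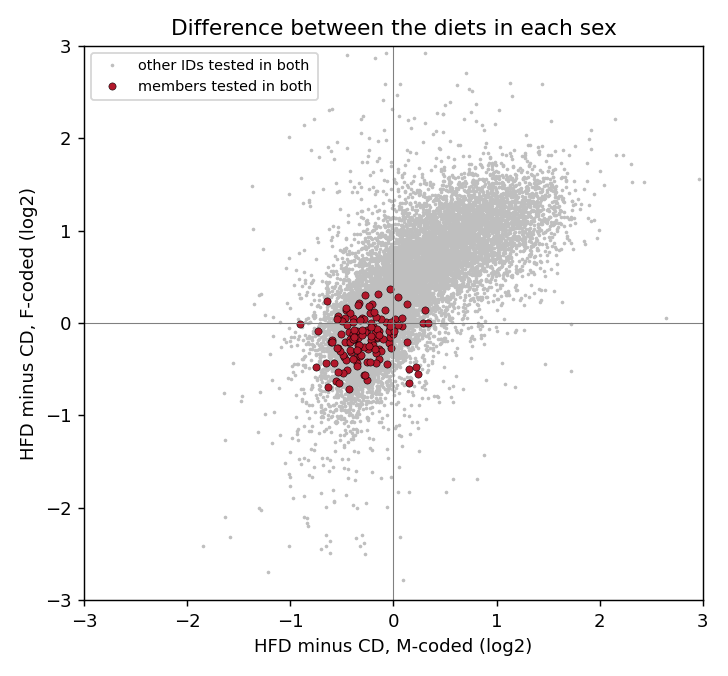
Each point is a gene ID tested in both sexes, with HFD minus CD (log2(FPKM + 0.5)) in M-coded rats across and in F-coded rats upwards, and the 134 members in red, while 13 IDs lie outside the axes. The members gather near and below 0 in both sexes, with medians of -0.29 in M-coded and -0.16 in F-coded rats, while the grey cloud reaches into the upper right.

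Within groups, the members moved together from animal to animal. Over the 16 animals of the rule, the median correlation of deviations from the 4 group means was 0.44 for the 9316 pairs of members and 0.09 for all pairs of background IDs. It exceeded 0.5 in 42.6% of the member pairs (24.3% in the background) and was under 0 in 13.1% (44.3%). These points share libraries and the same scaling, and the members were chosen on the same values, so the figures are a description. The median SD within a group was 0.25 in F-coded HFD, 0.40 in F-coded CD, 0.41 in M-coded HFD and 0.24 in M-coded CD animals. For the background it was 0.17, 0.59, 0.25 and 0.28 in the same order, so that the members were more scattered than other IDs in both HFD groups. They were less scattered in F-coded CD rats and slightly less in M-coded CD rats. An ID that is low in a single F-coded animal fails the gap, so these SDs depend in part on the choice.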

How the data were processed

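The deposited table holds FPKM for 32883 gene IDs in 18 animals. According to the labels and the study's methods, the authors mapped paired reads by STAR 2.5, made gene counts by HTSeq 0.6.1 and ran DESeq2 1.24.0 for their own tests. Their genome build is not given in the sources used here. The deposited FPKM are scaled to the reads in genes, so a few abundant transcripts move all others, and they were not rescaled for the main values. For all 22851 IDs above 0, whole reads and a length were recovered from the FPKM (largest deviation from a whole read 3.49e-09) and used for read counts and limma-voom alone. Means, differences and counts were computed in Python 3.11.15 with pandas 2.3.3. Diet was tested with limma 3.58.1 (R 4.3.3, trend, two-sided) on log2(FPKM + 0.5), over IDs at 0.5 FPKM or more in at least 3 animals of the comparison, and the code was tested on simulated data. Limits of counts of 0 cover counting error only.

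The members and lists were chosen with earlier results of these data known. IDs to be printed were limited to 4: the largest of the smaller difference, the highest level and the 2 furthest below the F-coded animals in G75FHF5, of which the last 2 were chosen after their values were seen. Planned gene lists, cell type markers, chromosomes and promoter motifs could not be applied without gene symbols. Alternatives were pseudocounts of 0.1 and 1, other scalings, filters and fits, and leaving out each animal in turn.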

Additional observations from a re-analysis of the deposited data

Results flagged for a closer look

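Of 20 groups of 4 or 5 animals examined for a value far from the rest (the members' median and the 4 printed IDs in each of the 4 groups), 2 stood out, where chance gives about 1 in 20. Both were G75FHF5 among the 5 F-coded HFD animals. For ENSRNOG00000011250 its gap to the next animal was 0.851 of the whole range, and for ENSRNOG00000053494 it was 0.876 of the range. These 2 IDs were printed for being low in this animal, so that the values describe the choice.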

How the results depend on the processing

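The number of members was 137 and moved to 44 with median-of-ratios scaling, 67 with quantile normalization, 63 with a difference of at least 1, 30 with G73FHF3 added and, in a setting chosen after seeing the data, 553 without G75FC4, G75FC5 and G76MC3. Pseudocounts of 0.1 and 1 gave 166 and 110, and no floor gave 139. Leaving out each of the 16 animals gave 124 to 263. The members called between the diets were 0 in both sexes under each of 9 other settings in M-coded and 11 in F-coded rats, among them the replicate block on code number (0 and 0 members called) and, chosen after seeing the data, limma-voom and the block on title number. Leaving out animals gave 0 to 2 in M-coded rats (2 without G74MHF2) and 0 to 0 in F-coded rats. Counts of all IDs called in M-coded rats went from 893 to 941 and 677 with pseudocounts of 0.1 and 1, 437 without a filter, 708 and 584 with the scalings, 696 with the block, 0 with all 4 groups in the fit, and 0 to 1420 without single animals. Members of G73FHF3 above the highest M-coded value were 24 to 49, and of G75FHF5 33 to 41.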
